A study of Mus musculus with 19 samples.

Results

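The lineage difference of a gene is its level in cells of the Nestin lineage minus its level in cells of the Math1 lineage. It was measured here at 2 stages, in normal cerebellar progenitors and in the tumors that arise from them, and the subject of this account is how the second compares with the first. Genes of 4 kinds are described. In some the lineage difference was kept in tumors, and in others it reversed. In some it was seen in progenitors and was not called in tumors, and in others it appeared only in tumors. Genes called at neither stage, or called at both but under the limits used, fit none of these. Of the 19 arrays of the study, the 16 of the 4 groups compared were used, with 4 in each group. GNP are granule neuron progenitors, labelled as Math1+ cells, and NEP are progenitors labelled as Nestin+. GNP tumor and NEP tumor are tumor cells from Math1-CreERT2/Ptch1C/C and Nestin-CreERT2/Ptch1C/C mice. All mice were labelled C57BL/6, and all cells were taken straight from the cerebellum, with no culture and no treatment of the cells. The loss of Ptch1 in the tumor mice depends on tamoxifen, so the tumor groups differ from the progenitors in this too. Ages, tamoxifen doses and whether an array held pooled animals are not given in the sources used here, so p-values measure the spread between these arrays, which may be technical in part. The remaining 3 arrays, of CD133+ Lin- neural stem cells (NSC), entered only the estimate of the spread.

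Granule neuron progenitors arise at the rhombic lip, express the transcription factor Atoh1 (also called Math1) and divide in the external granule layer of the young cerebellum in response to Sonic hedgehog. Ptch1 is the receptor that holds this pathway off, and its loss lets medulloblastoma form. CreERT2 is a tamoxifen-inducible recombinase; here it was driven by the promoter of Math1 or of Nestin, an intermediate filament gene of neural progenitors. The 2 tumor groups therefore share the loss of Ptch1 and differ in the cell in which it was lost. The Nestin promoter is also active in other neural progenitors and in glia of the developing brain, which limits it as a driver for 1 cell type.

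The defining genes followed the labels in the progenitors. Atoh1 measured 8.77, 8.96, 8.80 and 8.89 (log2) on the GNP arrays and 2.85, 2.38, 5.67 and 4.90 on the NEP arrays. Nes, the Nestin gene, measured 3.49 ± 0.35 in GNP and 5.87 ± 0.19 in NEP (SD, n = 4 in each). In the tumors Atoh1 was high in both groups, at 9.43 ± 0.03 in GNP tumor and 10.47 ± 0.15 in NEP tumor. Ptch1 itself measured 11.21 ± 0.04 in GNP tumor and 11.46 ± 0.09 in NEP tumor; where its probes lie relative to the deleted part is not given in the sources used here, so this does not check the deletion.

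The sample titles carry 1 code on all progenitor arrays and another on all tumor and NSC arrays. The labels do not say what the code stands for; the 2 sets are called runs here. Each lineage difference was taken within 1 run, so a shift that acts alike on both groups of a run cancels from it; a run effect that scales with the level does not cancel. All arrays had the same mean (3.79), and the hybridisation spike-ins spanned 5.39 ± 0.19 (log2, Cre minus BioB, n = 8) in the progenitor run and 5.42 ± 0.22 (n = 11) in the other, while the poly-A spike-ins stood at 8.82 ± 0.25 and 6.67 ± 0.28. Of 18193 genes on the array, 12148 passed a filter on low values and were tested, and the 407 of these on X and Y were left out of every count, which leaves 11741. In the text a gene is called higher or lower where limma gave an adjusted p (Benjamini-Hochberg, over all genes tested) below 0.05. NEP arrays 1 and 2 stood apart from arrays 3 and 4 in markers of microglia, mural cells and oligodendrocytes, and NEP tumor arrays 1 and 2 from arrays 3 and 4 in glial markers.

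Most of the lineage difference of the progenitors was not called in the tumors. In progenitors 8166 genes, 69.6% of those tested, differed between NEP and GNP, and in tumors 2768 genes, 23.6%. These calls use a spread pooled over all 5 groups. Fits from the 8 arrays of each stage alone, made after the data were seen, called 7060 and 3621 genes. The 1849 genes that were at least 2-fold higher in NEP had a median lineage difference of 2.00 (log2) in progenitors and 0.01 in tumors, and 82.9% of them were not called in tumors. Likewise, the 911 genes at least 2-fold lower in NEP had medians of -1.43 and 0.09, with 74.3% not called. Over all 11741 genes the medians were -0.11 and 0.05, and 8973 genes were not called in tumors. That share is near those of the 2 sets, so the shares not called say little about these sets. Across genes, which are not independent replicates, the 2 lineage differences had a Pearson's r of -0.10 and a Spearman's rho of -0.06; they share no array.

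The difference of the 2 lineage differences, tumor minus progenitor, tested each gene directly. It was called for 7256 genes, 61.8% of those tested, 4303 of them positive (36.6%) and 2953 negative (25.2%). A positive value means that the NEP side gained on the GNP side from progenitors to tumors. Among 1929 genes called at both stages, 884 (7.53% of all genes) had the same sign and 1045 (8.9%) the opposite one. With a further minimum of 2-fold at each stage, 57 genes (0.485%) were kept and 87 genes (0.741%) reversed. These limits cut through a continuum: Lmo3 (1.05 in progenitors, 1.00 in tumors) and Prom1 lay just inside the limit for kept genes, and Scarb1 (1.12 and 1.00, the latter 0.9989 before rounding) just outside; Cdhr1 (-1.20 and 1.01) lay just inside that for reversed genes and Usp29 (-1.44 and 0.98) just outside. A second quantile normalization of the arrays moved the share of the tumor calls that were higher in NEP tumor from 65.4% to 51.8%, that of the kept genes higher in NEP from 75.4% to 65.0%, and that of same-sign genes from 54.9% to 37.3%.

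**Figure D1:**
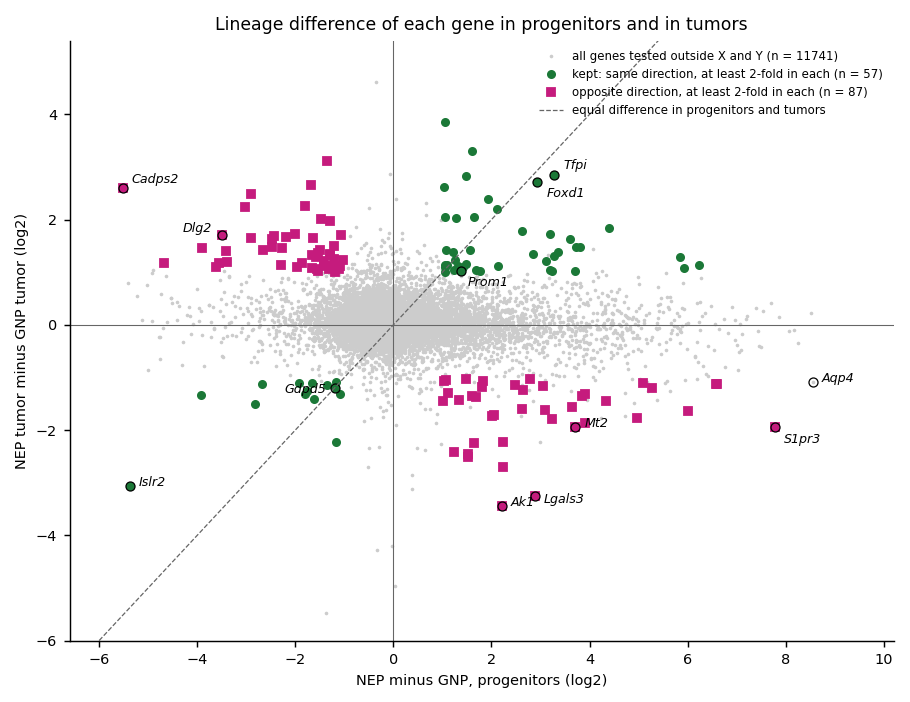
Lineage difference of each gene in progenitors (x axis, NEP minus GNP, log2) and in tumors (y axis, NEP tumor minus GNP tumor, log2). Grey points are the 11741 genes tested outside X and Y, green circles the 57 kept genes and pink squares the 87 reversed genes; the cloud is wide along x and flat along y, and Cadps2 and S1pr3 lie far out in opposite corners.

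Cadps2 and S1pr3 reversed most widely among these genes. Cadps2, which encodes a calcium-dependent activator of dense-core vesicle release known from granule cells, measured 10.40, 10.55, 10.42 and 10.34 on the GNP arrays and 3.71, 3.57, 5.97 and 6.38 on the NEP arrays. On the tumor arrays it measured 5.62, 5.80, 5.58 and 5.94 in GNP tumor and 7.97, 8.15, 8.75 and 8.48 in NEP tumor. The groups did not overlap at either stage, GNP being the highest group of all and NEP tumor above GNP tumor. Its lineage difference went from -5.52 to 2.60, a difference of differences of 8.12 (log2, SE 0.65, adjusted p = 1.84e-08, limma).

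S1pr3, a receptor for sphingosine-1-phosphate, ran the other way. It measured 1.83, 2.05, 2.13 and 2.79 in GNP, below or near the array median of 2.44 to 2.57, against 10.11, 10.03, 9.71 and 10.07 in NEP. In tumors the values were 7.13, 7.14, 6.80 and 6.82 in GNP tumor and 4.06, 3.95, 6.53 and 5.62 in NEP tumor. All NEP arrays were above all GNP arrays, and all NEP tumor arrays were below all GNP tumor arrays. The lineage difference went from 7.78 to -1.93 (difference of differences -9.72, SE 0.57, adjusted p = 3.25e-10), and the tumor part was -2.97 with NEP tumor arrays 1 and 2 alone and -0.90 with arrays 3 and 4 alone. With the mean of all 3 probe sets of the gene it was 4.44 and -0.68.

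Prom1 was kept. It encodes CD133, the surface antigen used to sort the NSC, and measured 7.16, 7.46, 7.27 and 7.07 in GNP and 8.77, 8.64, 8.17 and 8.85 in NEP. In GNP tumor it was 5.79, 5.88, 5.66 and 6.07 and in NEP tumor 6.77, 7.03, 6.76 and 6.89. The NEP-lineage arrays were higher at both stages with no overlap, by 1.37 and 1.01 (adjusted p = 1.11e-07 and 5.56e-05). The difference of differences was -0.36 (95% interval -0.75 to 0.04, adjusted p = 0.11); it was called without NEP array 3, at -0.50 (adjusted p = 0.0082).

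Aqp4, the water channel of astrocyte end-feet, was neither kept nor reversed by these limits. Its levels were 2.09, 2.10, 2.12 and 4.67 in GNP and 11.37, 11.48, 11.01 and 11.35 in NEP, the widest progenitor gap among the genes described, at 8.56. In tumors the groups overlapped, at 8.27, 8.31, 8.21 and 8.15 in GNP tumor and 5.97, 6.20, 8.56 and 7.91 in NEP tumor. The tumor difference of -1.08 (SE 0.55) was not called (adjusted p = 0.174), though it was without NEP tumor array 3 (-1.54, adjusted p = 0.045), while the difference of differences was -9.63 (SE 0.78, adjusted p = 1.91e-08).

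Among the 57 kept genes 43 were higher and 14 lower in the NEP lineage. For 27 of them the difference of differences was not called; for 23 the lineage difference was smaller in tumors and for 7 it was larger. The groups compared did not overlap at either stage for 52 of the 57. Of all genes tested, 57.1% had progenitor groups that did not overlap, 33% tumor groups, 19.4% both, and 8.97% both in the same direction. The direction and size of the kept genes are what chose them, so nothing is read from these shares. No other probe set was called the opposite way among the 23 genes with another tested probe set, and for 16 of these other probe sets were called the same way at both stages. The 8 higher genes and 8 lower genes whose smaller lineage difference was largest are described next.

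Tfpi, an inhibitor of the tissue factor pathway of coagulation, led the genes kept higher. Its levels were 2.39, 1.97, 2.44 and 3.68 in GNP, 5.90 ± 0.83 (SD, n = 4) in NEP, 3.71, 3.78, 3.90 and 3.87 in GNP tumor and 6.50, 6.38, 7.14 and 6.66 in NEP tumor. Both NEP-lineage groups stood clear of both GNP-lineage groups. The lineage difference was 3.28 in progenitors and 2.85 in tumors, and the difference of differences was -0.43 (95% interval -1.49 to 0.63, adjusted p = 0.473).

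Foxd1, Kcnj8 and Abcc9 are known from mural and stromal cells. Foxd1, a forkhead transcription factor, measured 1.24 ± 0.17 in GNP, 5.91, 6.22, 2.66 and 1.91 in NEP, 4.88 ± 0.16 in GNP tumor and 7.59 ± 0.49 in NEP tumor (SD, n = 4). Kcnj8, the pore subunit of an ATP-sensitive potassium channel, measured 2.66 ± 0.27 in GNP, 5.91, 5.80, 3.51 and 3.86 in NEP, 3.62 ± 0.15 in GNP tumor and 5.81 ± 0.35 in NEP tumor. Abcc9 encodes a regulatory subunit of this channel and was picked after its values were seen. It was also higher, by 3.72 in progenitors and 1.48 in tumors (adjusted p = 8.26e-07 and 0.0186). The tumor call was lost with NEP tumor arrays 1 and 2 alone (1.22, adjusted p = 0.13). Abcc9 was also not called at both stages after a second quantile normalization, or with the replicate numbers as a block. In tumors the groups did not overlap for any of these 3 genes. The tumor differences of Foxd1 and Kcnj8 were 2.71 (SE 0.69, adjusted p = 0.00917) and 2.20 (SE 0.41, adjusted p = 0.00116).

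In the progenitors these genes moved with a whole marker list. All 14 tested pericyte, fibroblast and meningeal genes were higher in NEP, and their median level was 8.88 and 8.97 on NEP arrays 1 and 2, 5.39 and 4.80 on arrays 3 and 4, and 2.61 ± 0.31 in GNP. In the tumors the list stood at 4.35 ± 0.14 in GNP tumor and 4.36 ± 0.27 in NEP tumor, with a median difference of -0.04. Foxd1 and Kcnj8 were the 2 of 14 that were called, against 15.4% of all genes called higher. With NEP arrays 3 and 4 alone 2 members were called higher and 5 lower in NEP tumor, with the tumor values themselves as before. The part of these cells in the progenitor difference was not tested. With NEP arrays 3 and 4 alone the progenitor differences of Foxd1 and Kcnj8 were 1.04 and 1.02, and with arrays 1 and 2 alone 4.82 and 3.19. Their difference of differences, -0.22 and 0.09 over all arrays, was accordingly 1.67 and 1.17 with the first pair and -2.11 and -0.99 with the second, so its sign depends on which NEP arrays are used. The tumor call of Foxd1 was lost with NEP tumor arrays 1 and 2 alone (2.31, adjusted p = 0.0785).

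**Figure D2:**
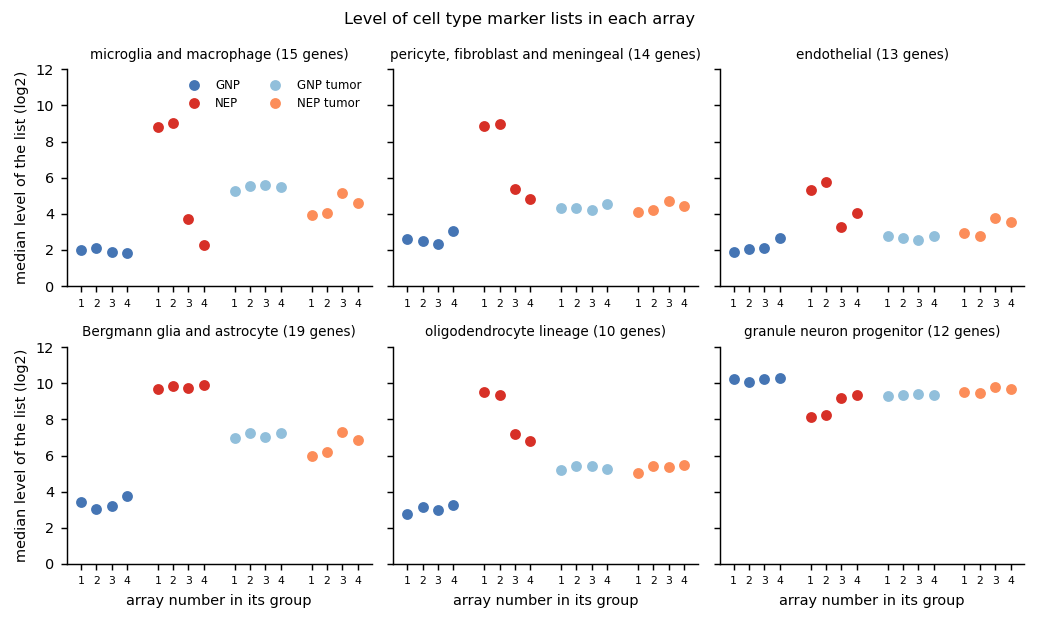
Median log2 level of 6 marker lists (y axis) on each array (x axis, array number within its group, by group colour). NEP arrays 1 and 2 stand above arrays 3 and 4 for microglia, pericyte, endothelial and oligodendrocyte genes and below them for granule neuron progenitor genes. In tumors the microglia genes lie lower in NEP tumor (3.93 to 5.16) than in GNP tumor (5.25 to 5.61).

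Patj, Skor1, Plxna2 and Calb1 were also kept higher. Patj, a scaffold of the Crumbs polarity complex, measured 4.57, 4.34, 4.39 and 5.02 in GNP, 5.81, 5.91, 7.23 and 7.05 in NEP, 4.22, 4.14, 4.43 and 4.04 in GNP tumor and 6.09, 6.15, 7.30 and 6.85 in NEP tumor. Its lineage difference was 1.92 and 2.39, without overlap at either stage; with the mean of its 4 probe sets it was 0.87 and 0.97. Plxna2, a semaphorin receptor, was 3.20 higher in progenitors and 1.73 higher in tumors (SE 0.18), a reduction of 1.47 (adjusted p = 0.000132). Skor1, a transcriptional corepressor of the SKI family, was 4.40 higher in progenitors and 1.85 higher in tumors (SE 0.36, difference of differences -2.55, adjusted p = 0.000408), or 2.18 and 0.95 with the mean of its 2 probe sets. Robo1, a receptor for Slit guidance cues, was the closest to equal among the kept higher genes that were picked after their values were seen, at 1.25 and 1.23 (difference of differences -0.03, adjusted p = 0.896), or 0.42 and 0.62 with the mean of its 3 probe sets.

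For several kept genes the NEP tumor arrays spanned a wider range than the lineage difference. Skor1 measured 3.81, 4.27, 6.28 and 5.47 on the 4 NEP tumor arrays against 3.11 ± 0.16 in GNP tumor. Calb1, the calcium buffer calbindin of Purkinje cells, measured 2.88, 2.89, 5.73 and 4.74 against 2.02 ± 0.43, and its tumor difference of 2.04 (SE 0.47, adjusted p = 0.00498) was 0.87 with arrays 1 and 2 and 3.22 with arrays 3 and 4. Calb1 was not called at both stages with the mean of all its probe sets, nor with a stricter filter on low values. The RIKEN transcript 9330179D12Rik measured 3.14, 2.55, 6.42 and 5.37 against 2.58 ± 0.06, overlapping GNP tumor. Its tumor difference of 1.79 (adjusted p = 0.0305) was not called with arrays 1 and 2 alone (0.26, adjusted p = 0.43), nor in 6 of 16 fits that left out 1 array, among them those without NEP tumor array 3 (1.10, adjusted p = 0.080) or 4 (1.45, adjusted p = 0.10). Leaving out array 3 also brought its difference of differences of -0.83 to -1.51 (adjusted p = 0.037).

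The list of GABAergic and Purkinje genes had a small median difference in tumors, but its median level on the arrays was higher in NEP tumor. The list stood at 2.24 ± 0.18 in GNP tumor and 3.38 ± 0.54 in NEP tumor, without overlap. Of its 8 tested members 2, Calb1 and Pcp2 (a Purkinje cell protein, 0.43 and 0.62), were called higher at both stages and none lower in tumors; the list's median was 1.05 in progenitors and 0.11 in tumors. Car8, a carbonic anhydrase related protein of Purkinje cells that is on no list and was picked after its values were seen, was 3.81 higher in NEP and 1.47 higher in NEP tumor (SE 0.41, adjusted p = 0.0159); the tumor call was lost with NEP tumor arrays 1 and 2 alone (0.55, adjusted p = 0.27), and without GNP tumor array 4 (1.34, adjusted p = 0.0503) or NEP tumor array 4 (1.25, adjusted p = 0.0565).

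Kept genes also stood among the stem cell and Hedgehog lists. Hhip, a decoy receptor induced by Hedgehog signalling, measured 2.22 ± 0.16 in GNP, 8.07 ± 0.33 in NEP, 4.88 ± 0.11 in GNP tumor and 6.17 ± 0.42 in NEP tumor, so its lineage difference fell from 5.85 to 1.28 (SE 0.19, adjusted p = 2.78e-10 for the change). Hes1, a Notch effector, went from 3.36 to 1.38 (SE 0.21) and S100b, a calcium-binding protein of glia, from 5.92 to 1.07 (SE 0.23). Egr3, an immediate early gene, was 1.05 higher in NEP, where both groups lay below the array median, and 3.85 higher in NEP tumor (SE 0.36, adjusted p = 2.05e-06). With values below the array median raised to it, the progenitor difference of Egr3 was 0.10 and was not called (adjusted p = 0.81), nor was it with the mean of its 2 probe sets (0.31, adjusted p = 0.19). These 4 genes had no overlap between groups at either stage; the tumor difference of S100b was 0.73 and not called with NEP tumor arrays 1 and 2 alone (adjusted p = 0.051).

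Islr2 had the largest difference of the 14 genes kept lower in the NEP lineage. It encodes a leucine-rich-repeat membrane protein of axons and measured 9.99, 10.18, 10.21 and 10.20 in GNP, 2.95, 3.48, 6.67 and 5.99 in NEP, 9.49, 9.45, 9.54 and 9.50 in GNP tumor and 7.02, 7.57, 4.91 and 6.20 in NEP tumor. All NEP-lineage arrays lay below all GNP-lineage arrays, and NEP arrays 1 and 2 were the lowest. The lineage difference was -5.37 in progenitors and -3.07 in tumors (SE 0.65, adjusted p = 1.68e-06 and 0.0029). Its difference of differences of 2.31 (adjusted p = 0.0388) lost its call in 12 of 16 fits that left out 1 array, with adjusted p up to 0.0858, and was 0.75 with NEP arrays 3 and 4 alone.

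Gdpd5, a membrane glycerophosphodiester phosphodiesterase, showed the most equal pair of differences. It measured 6.38, 6.41, 6.34 and 6.95 in GNP, 4.98, 5.36, 5.99 and 4.96 in NEP, 6.65, 6.70, 6.56 and 6.56 in GNP tumor and 5.04, 5.12, 5.75 and 5.78 in NEP tumor. Both differences were -1.20 (SE 0.21), and the 95% interval of the change ran from -0.64 to 0.65. Plk3, a polo-like kinase, was similar, at -1.76 and -1.25 (SE 0.19; change 0.51, 95% interval -0.07 to 1.09).

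Olig3, a transcription factor of rhombic lip progenitors, was lower in the NEP lineage at both stages, while its level in both tumor groups was far above that in progenitors. It measured 4.11, 4.22, 4.10 and 2.22 in GNP, 1.87 ± 0.20 in NEP, 8.51 ± 0.08 in GNP tumor and 7.20 ± 0.28 in NEP tumor; levels compared across the runs carry any run effect. The lineage difference was -1.79 and -1.31 (SE 0.31), and the change of 0.49 was not called over all arrays but was without GNP array 4 (0.97, adjusted p = 0.00033). The tumor call of Olig3 was lost with NEP tumor arrays 3 and 4 alone (-1.09, adjusted p = 0.075). Necab3, a calcium-binding protein, went from -2.82 to -1.50 (SE 0.20, adjusted p = 0.000799 for the change). The uncharacterised transcripts C230014O12Rik (-1.62 and -1.41) and A830010M20Rik (-1.17 and -2.22) were kept too, and for A830010M20Rik the tumor difference was the larger by 1.06 (adjusted p = 7.17e-06; 0.59 with the mean of its 3 probe sets). Stmn4, a neuronal stathmin, had -3.92 and -1.33, but its tumor call (adjusted p = 0.0468) was lost in 12 of 16 fits that left out 1 array, with adjusted p up to 0.115.

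**Figure D3:**
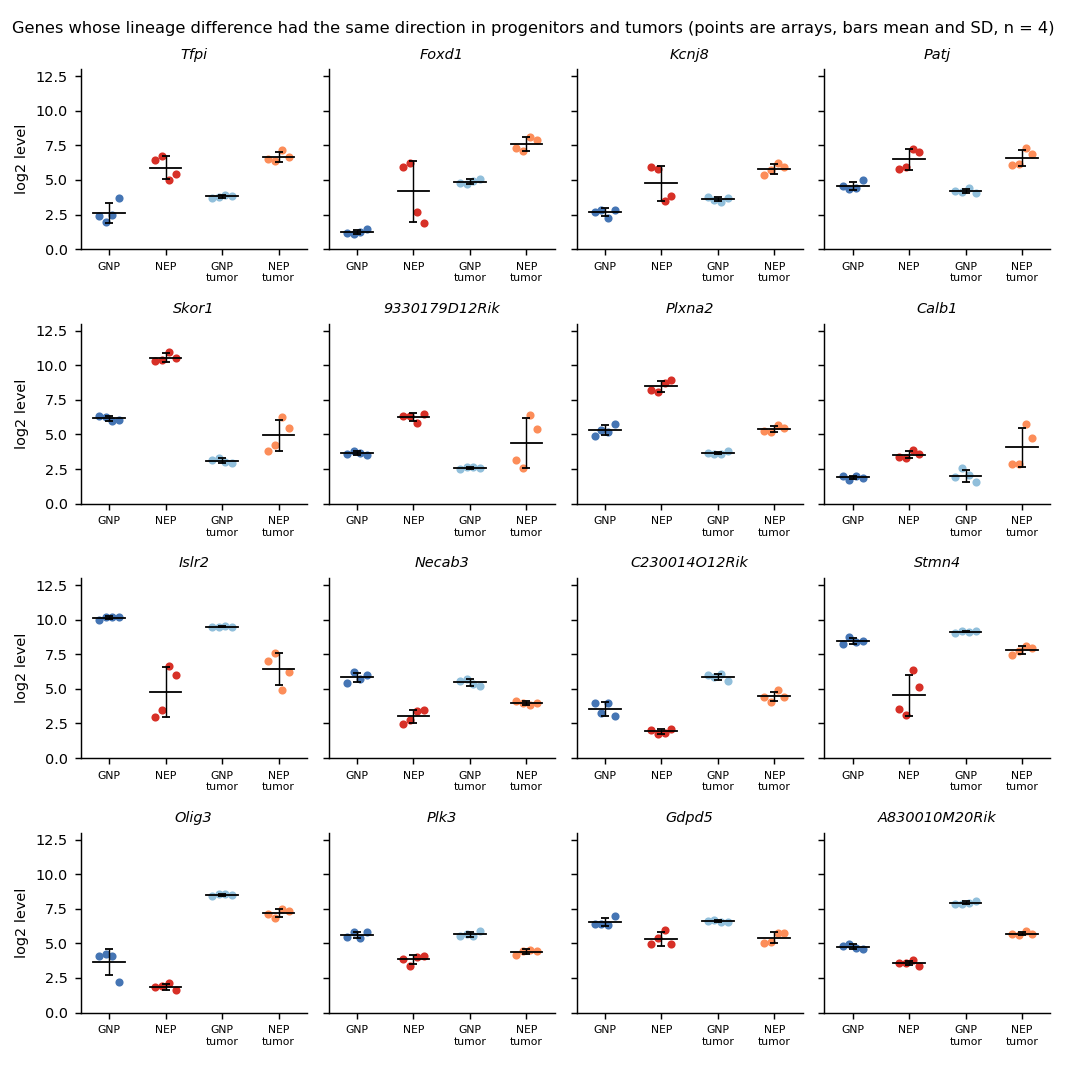
Level (log2) of the 16 kept genes described, by array in the 4 groups; the black bars give the mean and SD (n = 4). In the upper 8 panels NEP lies above GNP and NEP tumor above GNP tumor, except that the tumor groups overlap for 9330179D12Rik, and in the lower 8 panels they lie below; NEP arrays spread widely for Foxd1, Kcnj8, Islr2 and Stmn4, and NEP tumor arrays for Skor1, 9330179D12Rik and Calb1.

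Of the 87 genes that reversed at least 2-fold at each stage, 40 were higher in NEP and lower in NEP tumor, and 47 were lower in NEP and higher in NEP tumor. The groups did not overlap at either stage for 74 of them, and 10.4% of all genes were apart in opposite directions; the rule chose the 87 by direction and size, so nothing is read from this. Of 35 genes with another tested probe set 1 had a probe set called the opposite way, and 23 had other probe sets called the same way at both stages. Without the 2-fold minimum, 253 of the 1045 reversed genes were higher in NEP and 792 were lower. Of the 911 genes at least 2-fold lower in NEP, 18.1% were called higher in NEP tumor, near the 15.4% of all genes, and of the 1849 at least 2-fold higher in NEP, 6.38% were called lower in NEP tumor, against 8.15% of all genes.

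The metallothioneins Mt1 and Mt2, small metal-binding proteins that are neighbours on chromosome 8, reversed together. Mt2 measured 4.77, 5.03, 4.54 and 5.17 in GNP, 8.39, 8.29, 8.87 and 8.81 in NEP, 7.98, 7.85, 7.85 and 7.89 in GNP tumor and 5.96, 5.73, 6.13 and 5.98 in NEP tumor. Mt1, which was picked after its values were seen, measured 3.28, 3.42, 3.31 and 4.40 in GNP, 8.69, 8.52, 8.35 and 8.71 in NEP, 8.09, 8.13, 8.11 and 8.14 in GNP tumor and 6.34 ± 0.54 (SD, n = 4) in NEP tumor. For both genes the order was the same, with GNP lowest, then NEP tumor, and GNP tumor and NEP high, and no groups overlapped within a stage. The lineage difference of Mt2 went from 3.71 to -1.94 (change -5.65, SE 0.20, adjusted p = 5.71e-13) and that of Mt1 from 4.96 to -1.78 (change -6.74, SE 0.34, adjusted p = 3.79e-11; -3.60 with the mean of its 2 probe sets).

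Metallothionein genes are known to be induced by the metal-responsive factor Mtf1 through metal response elements, so the windows at their starts are shown. They span the RefSeq transcript start (GRCm38.p6, 300 bases on the plus strand, chr8:94172368-94172667 for Mt2 and chr8:94178839-94179138 for Mt1). Capitals mark matches to the core of the element, TGCACNC or TGCGCNC, on either strand.
Mt1: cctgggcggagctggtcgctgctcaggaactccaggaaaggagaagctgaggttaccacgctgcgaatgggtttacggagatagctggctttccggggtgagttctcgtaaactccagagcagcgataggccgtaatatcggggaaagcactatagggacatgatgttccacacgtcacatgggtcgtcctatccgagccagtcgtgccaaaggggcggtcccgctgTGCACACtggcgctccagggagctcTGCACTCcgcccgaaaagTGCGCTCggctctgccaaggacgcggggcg
Mt2: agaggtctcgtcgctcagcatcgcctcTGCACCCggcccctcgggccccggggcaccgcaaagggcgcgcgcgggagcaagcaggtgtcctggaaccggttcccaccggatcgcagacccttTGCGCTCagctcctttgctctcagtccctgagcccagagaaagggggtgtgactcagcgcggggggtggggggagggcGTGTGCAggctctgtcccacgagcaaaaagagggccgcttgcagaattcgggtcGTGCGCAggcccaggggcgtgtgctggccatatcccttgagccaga
The Mt1 window holds 3 matches, all on the plus strand, and the Mt2 window 4, 2 on each strand. At least 1 match stood in 25.704% of 32851 windows of the same length, at least 3 in 1.97% and at least 4 in 0.517%. A match is a description of the letters, not of a bound site.

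Genes known from astroglia made up part of the same direction. Hopx, a homeodomain-only protein of radial glia, went from 6.60 to -1.12 (change -7.73, SE 0.30), and Clu, the secreted chaperone clusterin, from 4.34 to -1.45 (change -5.79, SE 0.41); both had no overlap at either stage. Of the 19 tested Bergmann glia and astrocyte genes, 18 were higher in NEP, against 29.6% of all genes. In tumors 5 were lower in NEP tumor (Gfap, Clu, Gja1, Mlc1 and Aldoc), against 8.15% of all genes, and S100b was higher; the list's median went from 4.92 to -0.40. These tumor values moved with the pairs of NEP tumor arrays: the list stood at 5.97 to 6.17 on arrays 1 and 2, at 6.88 to 7.30 on arrays 3 and 4 and at 7.12 ± 0.14 in GNP tumor. With arrays 3 and 4 alone 2 members were lower and 2 higher, and the median was -0.003. Aldoc, the brain aldolase, lost its tumor call (-0.86, adjusted p = 0.0157) without NEP tumor array 1 (-0.67, adjusted p = 0.058) or 2 (-0.73, adjusted p = 0.052).

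None of the 15 tested microglia and macrophage genes reversed, but some single genes that did have known roles in such cells. Lgals3, the lectin galectin-3, measured 1.63, 1.81, 2.16 and 2.06 in GNP, 6.00, 6.03, 3.34 and 3.84 in NEP, 6.75, 6.77, 6.88 and 6.73 in GNP tumor and 3.32, 3.60, 3.61 and 3.57 in NEP tumor. Its groups were apart at both stages, and the lineage difference went from 2.89 to -3.25 (change -6.14, SE 0.61, adjusted p = 2.86e-07). Srgn, the proteoglycan core protein of secretory granules of blood cells, went from 3.90 to -1.86 (change -5.76, SE 0.68), and its tumor call was lost with NEP tumor arrays 3 and 4 alone (-1.75, adjusted p = 0.072). Cxcl2, a chemokine for neutrophils, went from 2.24 to -2.23, with NEP arrays at 5.09, 5.27, 1.77 and 1.19 against 1.09 ± 0.16 in GNP, so that progenitor groups overlapped. The tumor call of Cxcl2 (adjusted p = 0.0267) was lost without GNP tumor array 2 (-2.18, adjusted p = 0.058) or 3 (-2.06, adjusted p = 0.070), or NEP tumor array 3 (-1.96, adjusted p = 0.070) or 4 (-2.24, adjusted p = 0.055).

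For several of these genes the progenitor side rested on NEP arrays 1 and 2. With NEP arrays 3 and 4 alone, the progenitor difference was 0.39 for Cxcl2, 0.03 for H2-Aa, an MHC class II chain, -0.19 for Cd74, the invariant chain, and 0.06 for Atf3, a stress-induced transcription factor, and none was called; Lgals3 kept 1.68 (adjusted p = 4.7e-08). Over all arrays H2-Aa had 1.64 and -2.25, Cd74 1.23 and -2.41, and Atf3 1.33 and -1.44. Leaving out NEP array 1 or 2 ended the progenitor call of H2-Aa (1.13 and 1.08), Cd74 (0.62 and 0.89) and Atf3 (0.88 and 0.93). In all, the progenitor call was lost in 2, 6 and 3 of the 16 fits that left out 1 array, and the tumor call of Atf3 in 10, with adjusted p up to 0.14. In tumors the class II genes were lower in NEP tumor without overlap: H2-Aa measured 8.92 ± 0.06 in GNP tumor and 6.67 ± 0.26 in NEP tumor, and Cd74 8.04 ± 0.14 and 5.64 ± 0.20.

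The microglia and macrophage marker list moved beside them. All 15 tested members were higher in NEP, and the median level of the list was 8.83, 9.05, 3.74 and 2.24 on the NEP arrays against 1.96 ± 0.12 in GNP. In tumors no member was called, and the median difference was -1.03, with the list at 5.25 to 5.61 in GNP tumor and 3.93 to 5.16 in NEP tumor, all below. With NEP arrays 3 and 4 alone 10 of the 15 were higher in NEP (median 1.43), and 8 were called lower in NEP tumor, with the tumor values themselves as before. Their part in the reversals was not tested, and in these bulk samples fewer cells of a type and less RNA per cell cannot be told apart.

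Ak1, BC034090 and S1pr3 did not follow the NEP array pairs. Ak1, a cytosolic adenylate kinase, measured 4.62, 4.91, 4.79 and 3.12 in GNP, 6.35, 6.36, 7.02 and 6.56 in NEP, 6.51, 6.28, 6.43 and 6.64 in GNP tumor and 3.24, 3.32, 2.75 and 2.79 in NEP tumor. The change was -5.66 (SE 0.41, adjusted p = 4.56e-09; -2.94 with the mean of its 2 probe sets). BC034090, a gene named only by its cDNA, measured 5.62 ± 0.32, 7.85 ± 0.41, 8.37 ± 0.12 and 5.68 ± 0.40 in the same order (change -4.93, SE 0.29). In both the 4 NEP arrays lay together, above all GNP arrays, and the NEP tumor arrays below all GNP tumor arrays.

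Next come the 6 genes lower in NEP and higher in NEP tumor whose smaller difference was largest, of which Cadps2 is described above. Of the list of differentiating neuron genes, none of 17 reversed at least 2-fold. Dlg2, the postsynaptic scaffold PSD-93, measured 5.59, 5.72, 5.58 and 5.23 in GNP, 2.23, 2.05, 2.02 and 1.89 in NEP, 1.67, 1.77, 1.65 and 1.48 in GNP tumor and 3.30, 3.21, 3.60 and 3.27 in NEP tumor. NEP and GNP tumor lay below the array median, so the lineage difference of -3.49 and 1.70 rests on a dim group at each stage; with such values raised to the median the tumor difference was 0.80 and still called. The change was 5.19 (SE 0.19, adjusted p = 6.5e-13), and 2.50 with the mean of its 3 probe sets.

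Mir124-2hg, the host transcript of a miR-124 gene, a microRNA abundant in neurons, measured 5.42, 4.62, 5.06 and 5.88 in GNP, 1.36, 1.86, 3.03 and 3.08 in NEP, 3.09, 3.57, 2.98 and 3.07 in GNP tumor and 5.56, 4.90, 6.39 and 5.81 in NEP tumor. The array measures the host transcript and not the mature microRNA. NEP arrays 1 and 2 lay below the array median. GNP and NEP tumor formed the high groups, with no overlap at either stage (change 5.40, SE 0.52, adjusted p = 1.88e-07). Vat1l, a homologue of a synaptic vesicle protein, had the same order, at 7.53 ± 0.22, 5.51 ± 0.53, 5.74 ± 0.09 and 7.46 ± 0.28 (change 3.74, SE 0.28).

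In Hmgcll1 and Cntn6 the tumor side rested on 1 pair of arrays, and not on the same pair. Hmgcll1, an enzyme of ketone body synthesis, measured 6.17, 5.80, 9.63 and 8.99 in NEP tumor against 5.40 ± 0.17 in GNP tumor, a difference of 2.24 (adjusted p = 0.0128) that was 0.58 and not called with arrays 1 and 2 alone (adjusted p = 0.061). Cntn6, a contactin of axon surfaces, measured 6.18, 6.33, 2.45 and 4.37 in NEP tumor against 2.56 ± 0.10, overlapping; its difference of 2.27 (adjusted p = 0.00897) was 0.85 and not called with arrays 3 and 4 alone (adjusted p = 0.15).

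Ret, Gfra2 and Ngfr are 3 single genes of this direction that were picked after their values were seen, so they stand for no group. Ret, the signalling receptor for the GDNF family, measured 4.20 ± 0.36 in GNP, 2.66 ± 0.90 in NEP, 2.40 ± 0.11 in GNP tumor and 3.76 ± 0.52 in NEP tumor (change 2.91, SE 0.48). Gfra2, a GDNF family co-receptor that works with Ret, measured 6.37 ± 0.35, 5.27 ± 0.57, 5.33 ± 0.20 and 6.38 ± 0.15 (change 2.16, SE 0.31), and Ngfr, the p75 neurotrophin receptor, 7.58 ± 0.21, 4.18 ± 0.47, 6.16 ± 0.26 and 7.35 ± 0.47 (change 4.59, SE 0.32). For all 3 the groups were apart at both stages. With NEP tumor arrays 1 and 2 alone the tumor difference of Ret was 0.94 and not called (adjusted p = 0.11). GNP tumor lay below the array median for Ret and NEP near it, so the difference at each stage rests on a dim group. Ret was not called at both stages with a stricter filter on low values.

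Of the vesicle release list, to which Cadps2 belongs, 13 of 18 tested genes were lower in NEP and 2 higher, against 39.9% and 29.6% of all genes. In tumors 5 were higher and 2 lower, against 15.4% and 8.15% of all genes; with NEP tumor arrays 1 and 2 alone 2 were higher and none lower. The members called with opposite signs were Cadps2, Unc13c, Syt1 and Syt4, and those with the same sign Unc13b, Vamp2 and Stx1a; the list's median went from -0.89 to 0.14. Of the sphingosine and endothelin receptor list, to which S1pr3 belongs, 8 of 11 were higher in NEP and 1 lower, beside the same shares of all genes, and in tumors S1pr3 was lower and Lpar6, a receptor for lysophosphatidic acid, higher by 0.68 (adjusted p = 0.018, lost in 4 of 16 fits that left out 1 array, with adjusted p up to 0.0594).

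**Figure D4:**
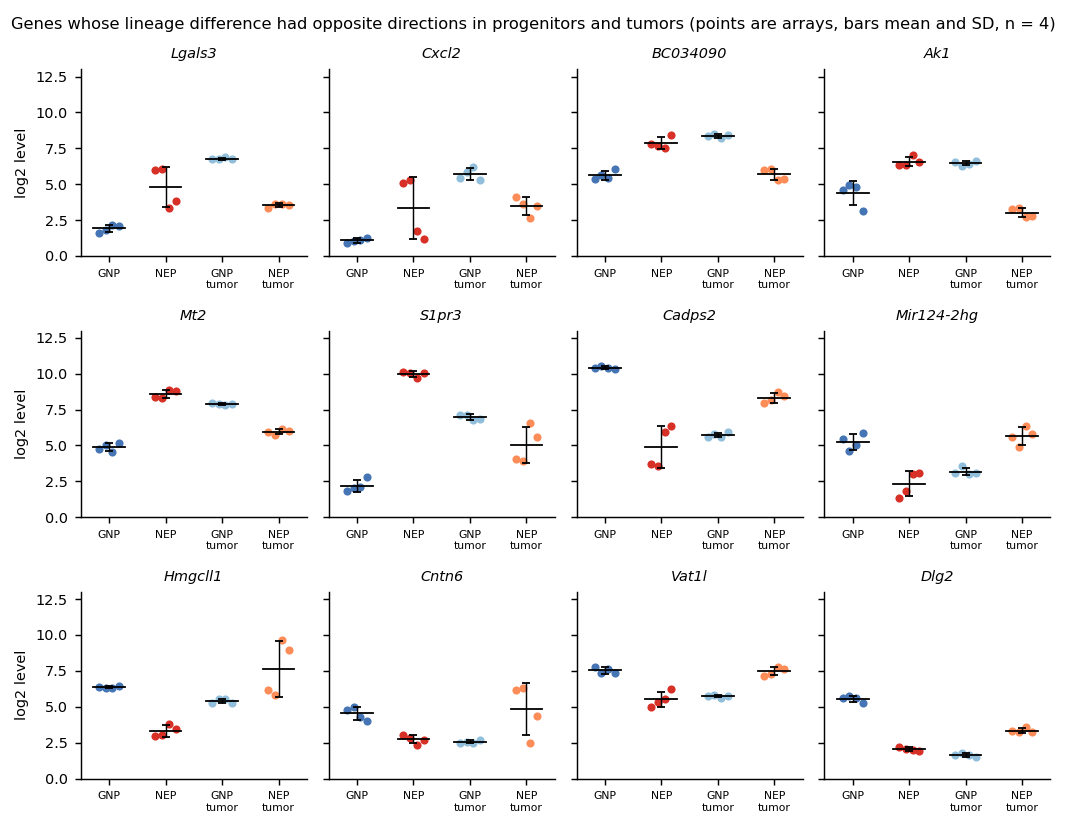
Level (log2) of the 12 reversed genes described, by array in the 4 groups; the black bars give the mean and SD (n = 4). In the first 6 panels NEP lies above GNP and NEP tumor below GNP tumor, and in the last 6 panels the reverse; for Cxcl2 the progenitor groups overlap and for Cntn6 the tumor groups.

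The largest changes of the lineage difference came from genes that were far apart in progenitors and less far apart in tumors. Beside Cadps2, the most positive were Uncx, a homeobox factor, at 6.21 (SE 1.16), Atoh1 at 5.95 (SE 0.68) and Tbata at 5.90 (SE 0.36). Uncx measured 10.07, 10.07, 10.15 and 10.19 in GNP and 2.51, 2.25, 7.34 and 6.75 in NEP, but 9.22 ± 0.05 in GNP tumor and 10.02 ± 0.27 in NEP tumor. The tumor difference of Atoh1, 1.05 (SE 0.48), was not called (adjusted p = 0.13) although the groups did not overlap; without NEP array 3, which shrinks the pooled spread and leaves this value as it is, it was (adjusted p = 0.034). Tbata was 4.92 lower in NEP and 0.98 higher in NEP tumor (adjusted p = 0.010).

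At the other end, after S1pr3 and Aqp4, stood Pla2g7, a phospholipase that degrades platelet-activating factor, and Tnc, the matrix glycoprotein tenascin C. Pla2g7 measured 2.38 ± 0.53 in GNP and 10.62 ± 0.10 in NEP, against 5.76 ± 0.19 in GNP tumor and 5.41 ± 0.55 in NEP tumor (change -8.59, SE 0.34). Tnc measured 2.01 ± 0.43 and 10.53 ± 0.30, against 2.89 ± 0.21 and 3.11 ± 0.47 (change -8.30, SE 0.34). The tumor groups overlapped for both, with differences of -0.35 and 0.22 that were not called (adjusted p = 0.335 and 0.564).

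Of the 293 genes at least 2-fold apart in tumors, 80 (27.3%) were called the same way in progenitors, 129 (44.0%) the opposite way and 84 (28.7%) not at all. Of all 11741 genes, 29.6% were called higher in progenitors, 39.9% lower, and 3575 genes not at all. The share not called was thus near that of all genes. Among the 84 genes, Tecta, a tectorin known from the inner ear, was below the array median in both progenitor groups, at 1.85 ± 0.07 in GNP and 1.50 ± 0.20 in NEP. It measured 2.91, 2.55, 2.51 and 2.44 in GNP tumor and 6.14, 5.85, 8.67 and 8.23 in NEP tumor, a difference of 4.62 (SE 0.44, adjusted p = 2.52e-06). Among the 16 arrays compared, Tecta passed the filter on low values through NEP tumor, the group where it was high. Krt12, a keratin, was 2.86 higher in NEP tumor (SE 0.24, adjusted p = 5.67e-07) and likewise dim in both progenitor groups. Cth, the enzyme that makes cysteine from cystathionine, was the one of these that progenitors expressed, at 5.18 ± 0.14 in GNP and 5.25 ± 0.34 in NEP. In tumors it measured 2.18, 2.42, 2.25 and 2.36 in GNP tumor and 5.29, 5.24, 3.64 and 4.64 in NEP tumor, a difference of 2.40 (SE 0.26, adjusted p = 9.27e-06). GNP tumor lay below the array median for Cth, so the size of this difference rests on a dim group.

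Chil3 and Arg1, markers of alternatively activated macrophages, were the reverse of this. Chil3 was dim in both progenitor groups, at 1.52 ± 0.06 and 1.54 ± 0.07, and measured 7.44, 7.33, 6.93 and 7.27 in GNP tumor and 2.34, 2.36, 2.13 and 2.27 in NEP tumor. Arg1, an arginase, was at 1.30 ± 0.09 and 1.26 ± 0.06 in progenitors, at 5.87, 5.32, 5.22 and 5.45 in GNP tumor and at 1.26 ± 0.08 in NEP tumor. The 4 GNP tumor arrays were thus the ones well above the array median for both genes, with tumor differences of -4.96 (SE 0.10, adjusted p = 1.28e-15) and -4.20 (SE 0.11, adjusted p = 5.22e-14), while the microglia list differed by -1.03. Among the 16 arrays compared, both genes passed the filter on low values through GNP tumor, the group where they were high. The p-values use a spread pooled over all groups, so they do not measure the spread of the GNP tumor arrays alone. AI506816, an uncharacterised transcript, was 5.47 lower in NEP tumor than in GNP tumor, but varied within groups of progenitors, at 6.29, 6.46, 6.22 and 2.34 in GNP and 5.63, 5.74, 2.25 and 2.16 in NEP; without GNP array 4 its progenitor difference of -1.38 was -2.38 and called (adjusted p = 0.0066).

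By gene list, large progenitor medians were smaller in tumors. The counts that follow stand beside 29.6% of all genes called higher and 39.9% lower in progenitors, and 15.4% higher and 8.15% lower in tumors; the tumor counts of the granule progenitor, neuron, cell cycle and DNA repair lists lie near these shares. All 17 tested stem cell and radial glia genes were higher in NEP, with a median of 4.56. In tumors 6 were higher (Nes, Prom1, Sox9, Hes1, Pax3 and Id1), 1 was lower (Hopx) and the median was 0.11. The median level of this list was 5.55 ± 0.11 in GNP tumor and 6.53 ± 0.31 in NEP tumor, without overlap. The tumor difference of Nes, 0.94 (adjusted p = 0.0191), was 1.55 with NEP tumor arrays 1 and 2 and 0.34 with arrays 3 and 4, and lost its call without GNP tumor array 1 (0.89, adjusted p = 0.053) or NEP tumor array 1 or 2 (0.74 and 0.75, adjusted p = 0.070 and 0.065). Among 12 granule neuron progenitor genes 10 were lower in NEP, and in tumors 2, Cadps2 and the paired-box factor Pax6, were higher and none lower; Pax6 went from -1.24 to 0.92 (change 2.16, SE 0.22, adjusted p = 3.7e-07). Of 17 genes of differentiating neurons, 14 were lower in NEP (median -2.11), and 3 were higher in NEP tumor (median 0.13). The median level of this list ran the other way in tumors, at 9.10 ± 0.04 in GNP tumor and 8.54 ± 0.19 in NEP tumor. The list of 37 cell cycle genes had 36 lower in NEP (median -0.77) against 4 higher and 3 lower in NEP tumor (median -0.07), and 35 of 49 DNA repair genes were lower in NEP (median -0.50) against 6 higher and 1 lower in NEP tumor (median 0.11).

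The Hedgehog list was mixed in progenitors and had no member called lower in tumors. Of 16 tested members 6 were higher and 6 lower in NEP, where 29.6% and 39.9% of all genes were. In NEP tumor 8 were higher and none lower, where 15.4% and 8.15% of all genes were, with medians of 0.05 and 0.31; with either pair of NEP tumor arrays alone 5 were higher and 1 lower. Gli1, the pathway's transcriptional readout, went from -0.97 to 0.33 (change 1.30, SE 0.37, adjusted p = 0.00599) with overlapping groups at both stages, and its progenitor call was lost with NEP arrays 3 and 4 alone (-0.60, adjusted p = 0.071). The tumor calls of the opposite-sign members were small: Gli2 0.40, Mycn 0.52 and Ccnd1 0.29, each lost in 6, 11 and 6 of 16 fits that left out 1 array, with adjusted p up to 0.0696, 0.123 and 0.0915. Sufu, a negative regulator, was higher in the NEP lineage at both stages, by 0.46 and 0.60 (SE 0.08), though the progenitor call was lost with the mean of its 3 probe sets (0.10, adjusted p = 0.14). The change of 0.13 was called without NEP array 3 (0.21, adjusted p = 0.045). Ptch1 differed by 0.24 and 0.25, neither called, and with the mean of its 3 probe sets the tumor difference was -0.33 (adjusted p = 0.020), so its direction in tumors depends on the probe set. The progenitor value of Ptch1 was called without NEP array 1 (0.32, adjusted p = 0.012) or 2 (0.30, adjusted p = 0.023), and the tumor value without NEP array 4 (0.25, adjusted p = 0.023).

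The remaining lists followed the same course. Of 10 oligodendrocyte lineage genes 8 were higher in NEP, and 1 was higher and 1 lower in NEP tumor (medians 4.14 and -0.19). With NEP arrays 3 and 4 alone the progenitor median of this list was 2.57. For 13 endothelial genes 12 were higher in NEP and none was called in tumors (2.39 and 0.40). Their progenitor median was 1.16 with NEP arrays 3 and 4 alone, and with NEP tumor arrays 3 and 4 alone 3 were called higher, with a tumor median of 0.78 (-0.01 with arrays 1 and 2 alone). For 9 ependymal and choroid plexus genes 7 were higher, 2 lower and none called in tumors (1.38 and -0.23). Of 22 Notch pathway genes 15 were higher in NEP and 3 lower, and in tumors 2, Hes1 and the ligand Dll3, were higher and 1, the ligand Dll1, lower (1.14 and -0.02). Of 22 immediate early and stress genes 13 were higher and 5 lower in NEP, and in tumors 2 were higher and 1, Atf3, lower (0.91 and -0.08). Their median level was 7.37 and 7.36 on NEP arrays 1 and 2, 5.14 and 5.45 on arrays 3 and 4, and 6.47, 6.07, 6.47 and 4.15 on the GNP arrays. With NEP arrays 3 and 4 alone 6 were higher and 6 lower, with a progenitor median of 0.40. Of 14 regional patterning genes 5 were higher and 7 lower in NEP, and 1, the growth factor gene Fgf8, was higher in NEP tumor (-0.45 and 0.10). The counts called in tumors were near the shares of all genes called, 15.4% higher and 8.15% lower, for most of these lists.

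**Figure D5:**
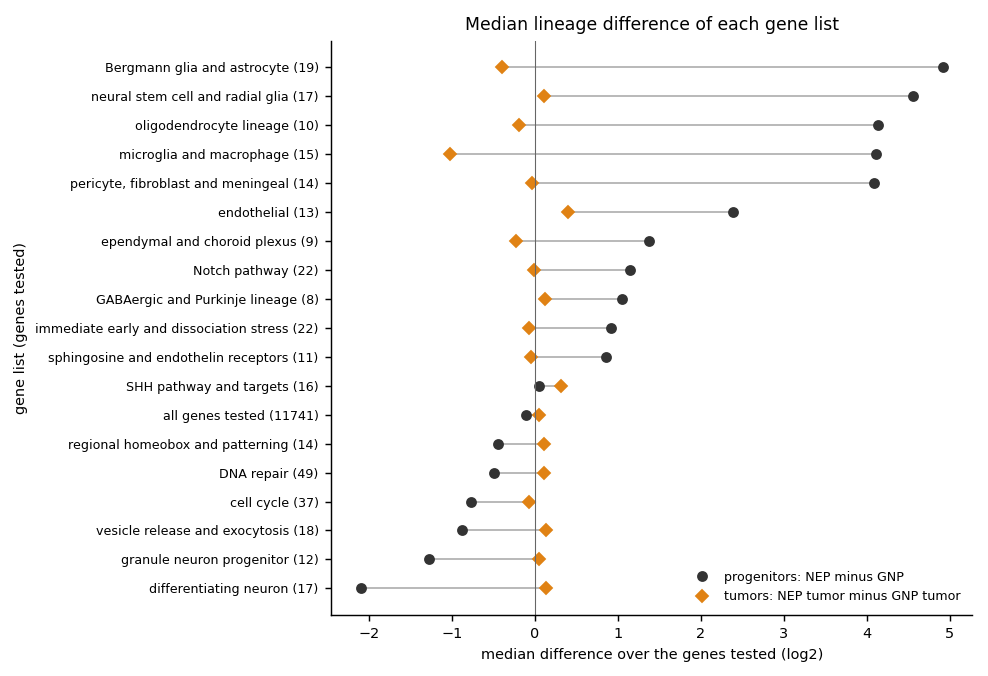
Median lineage difference (x axis, log2) of the tested genes of each list (y axis) in progenitors (dark circles) and in tumors (orange diamonds). Progenitor medians run from -2.11 to 4.92, and tumor medians lie between -1.03 and 0.40.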

How the data were processed

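Each sample was hybridised to an Affymetrix mouse expression array, and the values used are the log2 expression values that the authors deposited. The submitters' processing notes name RMA and the Affymetrix Expression Console software; any further centring or scaling is not given in the sources used here. Of 45101 probe sets, 34945 had 1 gene symbol and 932 several; the latter, with 9160 without a symbol and the 64 controls, were left out of the gene tests. Each gene was represented by its probe set with the highest mean, and was tested if it reached the array median on at least 3 arrays. limma 3.58.1 in R 4.3.3 (lmFit, eBayes) fitted 5 group means to all 19 arrays, and p-values were adjusted (Benjamini-Hochberg) over the 12148 genes tested. Among 171 pairs of arrays none held identical values. The scripts were tested on simulated data. The number of arrays limits the precision.

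Genes are named by these rules: for each direction, the 8 kept and 6 reversed genes with the largest smaller difference, the 4 genes with the largest change and the 3 tumor-only genes with the largest tumor difference; up to 4 members of each of 18 lists and all their kept or reversed members; and Cadps2, S1pr3, Prom1, Aqp4, Nes, Atoh1, Ptch1, Gli1 and Tnc. The members and lists were chosen with earlier results of these data known. Mt1, Abcc9, Robo1, Car8, Srgn, H2-Aa, Cd74, Ret, Gfra2, Ngfr and some list members were picked after their values were seen. Alternatives covered normalization, probe set choice, filters, the spread and left-out arrays. Promoter windows came from RefSeq, with those of chromosome 18 not used here.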

Additional observations from a re-analysis of the deposited data

Results flagged for a closer look

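Of 176 gene and group pairs among the named genes, 12 held 1 array whose gap to the nearest of the others was large for the group's range (Dixon's criterion); chance gives about 1 in 20. In log2 levels, 9330179D12Rik in NEP array 3 was 5.84 (others 6.37 to 6.46), Islr2 in GNP array 1 was 9.99 (others 10.18 to 10.21) and Olig3 in GNP array 4 was 2.22 (others 4.10 to 4.22). Plk3 in NEP tumor array 1 was 4.17 (others 4.48 to 4.49), Gdpd5 in GNP array 4 was 6.95 (others 6.34 to 6.41) and A830010M20Rik in NEP tumor array 3 was 5.89 (others 5.61 to 5.66). Lgals3 in NEP tumor array 1 was 3.32 (others 3.57 to 3.61), Ak1 in GNP array 4 was 3.12 (others 4.62 to 4.91) and Tbata in NEP tumor array 3 was 10.13 (others 10.33 to 10.36). Aqp4 in GNP array 4 was 4.67 (others 2.09 to 2.12), Pla2g7 in GNP tumor array 3 was 5.47 (others 5.84 to 5.86) and AI506816 in GNP array 4 was 2.34 (others 6.22 to 6.46). GNP array 4 accounted for 5 of the 12.

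The lineage difference itself differed between progenitors and tumors, by limma's test of the change at an adjusted p below 0.05, for 32 of 44 named genes, beside 61.8% of all genes tested. Many of the 44 are named because their change or reversal was large, so this count says little about them. In log2, the change (tumor minus progenitor) was negative for S1pr3 -9.72, Aqp4 -9.63, Pla2g7 -8.59, Tnc -8.30, Lgals3 -6.14, Ak1 -5.66, Mt2 -5.65, Chil3 -4.99, BC034090 -4.93, Cxcl2 -4.48, Arg1 -4.17, AI506816 -4.09, Skor1 -2.55, Plxna2 -1.47, Nes -1.43 and A830010M20Rik -1.06. It was positive for Cadps2 8.12, Uncx 6.21, Atoh1 5.95, Tbata 5.90, Mir124-2hg 5.40, Hmgcll1 5.27, Dlg2 5.19, Tecta 4.97, Cntn6 4.07, Vat1l 3.74, Krt12 2.93, Stmn4 2.60, Cth 2.34, Islr2 2.31, Necab3 1.32 and Gli1 1.30. For the genes kept with a called change, Skor1, Plxna2, Islr2, Necab3, Stmn4 and A830010M20Rik, the sign of the lineage difference was the same at both stages.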

How the results depend on the processing

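Over 16 fits that each left out 1 array, the progenitor difference gave 7659 to 8281 calls, the tumor difference 2046 to 3055 and the change between them 6843 to 7603. The same fits gave 49 to 63 kept genes, 674 to 996 same-sign genes with no fold minimum, 769 to 1176 reversed genes and 78 to 94 reversed at least 2-fold. With the mean of all probe sets of a gene, 35 were kept and 49 reversed at least 2-fold, and Ptch1 turned to -0.3307 in tumors, with a change of -0.4442. Array weights gave 5459 tumor calls, 2163 reversed genes and 1836 same-sign genes with no fold minimum. With NEP arrays 1 and 2 only, an alternative chosen after seeing the data, 1669 genes reversed and the change of Kcnj8 was -0.9944; with NEP arrays 3 and 4 only that of Foxd1 was 1.667. The cause of these shifts was not tested. Among single genes, apart from those fits, 1627 values kept their direction and side of the threshold, 35 gained a call, 26 lost one and 4 turned. Of the 57 kept genes 31, and of the 87 reversed 46, were called at both stages in all 29 alternative fits. Fits with 2 arrays in a group assume that group varies like the rest.

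The replicate numbers were tried as a block on the 16 arrays compared. Same-numbered progenitor arrays correlated at -0.158 to 0.071 in their deviations and tumor arrays at -0.043 to 0.052. Such correlations cannot tell whether same-numbered arrays were prepared together, which the labels do not say. The serial numbers in the titles put same-numbered progenitor arrays of both lineages side by side. For the tumors they run through one lineage and then the other, so any effect of that order cannot be told apart from lineage. The block gave 1786 tumor calls, 646 reversed genes and 562 same-sign genes with no fold minimum.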
